A study of Mus musculus with 6 samples.

Results

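The 10 genes described here are markers of the cells that build brain capillaries. Pecam1, Cldn5, Cdh5, Kdr, Flt1, Tek and Esam mark endothelial cells, and Pdgfrb, Rgs5 and Abcc9 mark pericytes. They were chosen by name, as standard markers of these cell types and with earlier results of these data known. A gene count table of 55367 rows held all 10 genes. Of these, 8 had enough counts to be among the 16976 genes that were tested, and Cldn5 and Tek did not.

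RNA-seq was done on cortical neurons from C57BL/6J mice, taken at postnatal day 1 (P1) and grown for 2 days in vitro, from wild-type pups (WT, n = 3) and from Fmr1 knockout pups (Fmr1-KO, n = 3). Fmr1 encodes FMRP, the RNA-binding protein lost in fragile X syndrome, and the study asked how its loss affects nonsense-mediated mRNA decay. Cultures of both genotypes were made in the same way: cortex was dissociated with papain, passed through strainers meant to hold back vessels and clumps, and depleted of astrocytes and myelin with antibody-coated beads. The study calls the samples independently derived, but the labels name no litter, culture or batch and do not say whether pups were pooled, so the P values measure the spread between these libraries, part of which may be technical.

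Endothelial cells line the vessel wall, where cadherin and claudin junctions seal them and receptors for vascular endothelial growth factor (VEGF) and angiopoietins govern their growth and rest. Pericytes sit on the outer face of capillaries, depend on platelet-derived growth factor (PDGF) released by the endothelium, and in the brain carry a potassium channel gated by ATP. Neither cell type belongs to the neuronal lineage, and several of their markers are also made by other cells.

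Total counts ran from 30348556 to 35126207 per library, and the spread among replicates exceeded counting noise (chi-square over its degrees of freedom, WT 2.91 and Fmr1-KO 3.15). Fmr1, the targeted gene, was lower in every Fmr1-KO library than in every WT library, with a mean 0.506 times that of WT (log2 fold-change -0.98, SE 0.04, adjusted P = 2.25e-13). Many genes differed between the genotypes: 21.9% of tested genes were lower and 20.7% were higher at an adjusted P under 0.05 by edgeR's quasi-likelihood test. The median log2 fold-change of all tested genes was 0.01.

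Neither marker set moved as a block. Among the endothelial genes Kdr and Flt1 were higher in Fmr1-KO cultures and Cdh5 was lower. Among the pericyte genes Pdgfrb was higher while Rgs5 and Abcc9 were lower. In all, 3 of the 8 tested genes were lower, beside 21.9% of all tested genes, 3 were higher, beside 20.7%, and Pecam1 and Esam did not pass the test. The calls of Flt1 and Cdh5 depended on which libraries were included, as given with each gene. The libraries of the genotypes did not overlap for 7 of the 10 genes, 4 lower and 3 higher in Fmr1-KO, and they did not overlap for 51.7% of all tested genes. These cultures are bulk samples, so fewer cells of a type and less RNA per cell cannot be told apart.

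**Figure D1:**
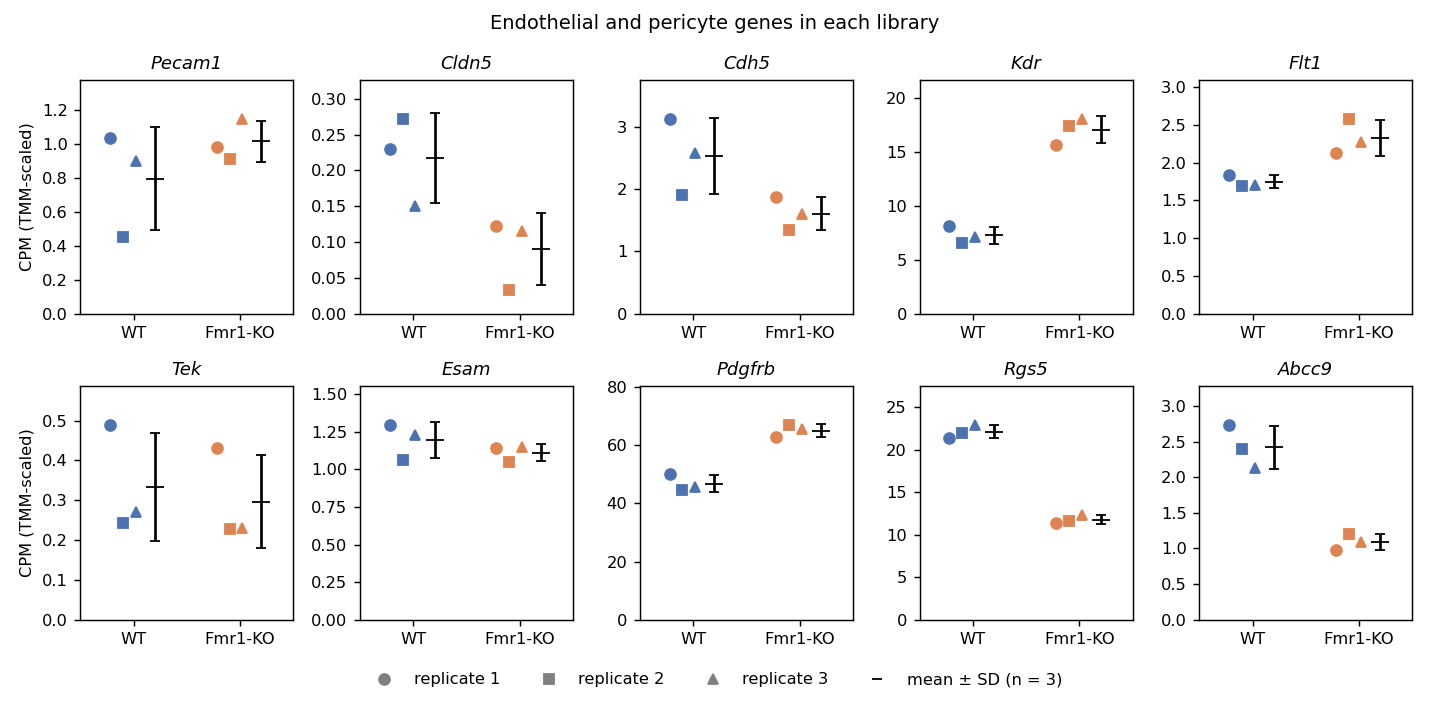
Each panel gives 1 gene, with its level in CPM (counts relative to the library size, scaled by TMM for composition) on a vertical axis that starts at 0, 1 point per library (circle, square and triangle for replicates 1, 2 and 3) and a bar for the mean ± SD (n = 3). Kdr went from 7.27 CPM in WT to 17.1 CPM in Fmr1-KO and Pdgfrb from 46.9 to 65.1, whereas Rgs5 went from 22.1 to 11.8 and Abcc9 from 2.42 to 1.09.

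The sequences upstream of 3 genes are shown, picked with their results known. From the endothelial set these are Kdr and Flt1, paired VEGF receptors that were both higher. From the pericyte set it is Rgs5, which was lower. Chosen by outcome, these sequences do not serve to compare higher with lower genes. They are reference sequences from RefSeq on GRCm38.p6, read 5′ to 3′ on the gene's own strand. Each runs from 250 to 4 bases before the start that RefSeq annotates. For Kdr, GENCODE places the start of the gene at 75978458, directly next to the stretch. RefSeq entries were found for 6 of the 10 genes. Capitals mark matches on either strand to the core of the ETS factor motif (GGAAG, or CTTCC on the other strand), the GC box (GGGCGG or CCGCCC) and the TATA box (TATAAA or TTTATA), and no matches overlap.
Kdr, chr5:75978459-75978705, minus strand: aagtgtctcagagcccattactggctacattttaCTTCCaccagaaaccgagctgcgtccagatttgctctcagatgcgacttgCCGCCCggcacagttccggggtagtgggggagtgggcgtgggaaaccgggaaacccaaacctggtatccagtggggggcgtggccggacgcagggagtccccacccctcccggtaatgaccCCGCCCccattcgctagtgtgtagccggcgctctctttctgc
Flt1, chr5:147726015-147726261, minus strand: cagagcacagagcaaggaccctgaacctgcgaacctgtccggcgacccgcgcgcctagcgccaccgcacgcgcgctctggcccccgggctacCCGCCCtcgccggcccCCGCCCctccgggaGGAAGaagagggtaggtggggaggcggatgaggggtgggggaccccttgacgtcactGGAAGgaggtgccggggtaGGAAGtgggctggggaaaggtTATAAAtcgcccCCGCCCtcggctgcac
Rgs5, chr1:169655251-169655497, plus strand: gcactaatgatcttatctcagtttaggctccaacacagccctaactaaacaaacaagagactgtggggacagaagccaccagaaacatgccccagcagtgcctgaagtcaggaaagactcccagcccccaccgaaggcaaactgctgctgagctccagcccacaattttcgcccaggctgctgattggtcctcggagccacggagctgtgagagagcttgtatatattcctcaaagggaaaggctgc

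The stretch upstream of Kdr held 1 ETS core and 2 GC boxes and no TATA box. The Flt1 stretch held 3 ETS cores, 3 GC boxes and 1 TATA box, and the Rgs5 stretch held none of these letters. GC content was 61.5% for Kdr, 70.9% for Flt1 and 53.0% for Rgs5, beside a median of 52.2% over 32534 promoter stretches of the same length. An ETS core was present in 63.4% of those stretches, a GC box in 32.6% and a TATA box in 12.2%, and a match describes the letters and not a bound site.

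Levels were compared between genes per length, as RPKM, which is CPM divided by the exon length in kilobases, with lengths from GENCODE M21. In WT cultures Pdgfrb stood at 8.55 ± 0.552 RPKM (SD, n = 3) and Rgs5 at 4.87 ± 0.165 RPKM, far above the endothelial genes. Kdr (0.805 ± 0.0868 RPKM) and Cdh5 (0.604 ± 0.147 RPKM) followed, and their libraries overlapped. Esam was at 0.416 ± 0.0425 RPKM and Abcc9 at 0.289 ± 0.0363 RPKM, each apart from its neighbours in the order. The last 4 genes, Cldn5 (0.154 RPKM), Flt1 (0.129 RPKM), Pecam1 (0.128 RPKM) and Tek (0.0708 RPKM), overlapped with their neighbours and could not be ranked.

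The order was partly different in Fmr1-KO cultures. Pdgfrb, at 11.9 ± 0.397 RPKM, was again first, and Rgs5 (2.59 ± 0.111 RPKM) and Kdr (1.89 ± 0.137 RPKM) had drawn close to each other without overlapping. Abcc9 fell from the sixth place to the eighth, at 0.131 ± 0.0134 RPKM. The pairs Esam and Cdh5, Flt1 and Pecam1, and Cldn5 and Tek overlapped within this genotype. Across all 6 libraries Pdgfrb alone supplied 59.8% of the counts of the 10 genes, and Pdgfrb, Rgs5 and Kdr together supplied 91.0%.

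**Figure D2:**
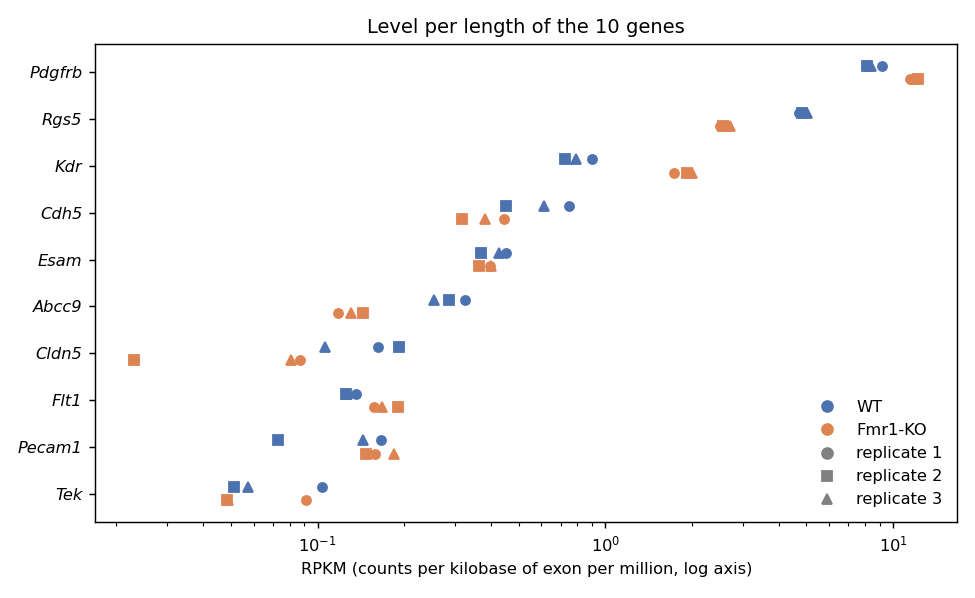
RPKM of the 10 genes on a log axis, ordered from the lowest WT mean at the bottom to the highest at the top, with 1 point per library (blue for WT, orange for Fmr1-KO). The values span from 0.0708 RPKM for Tek to 8.55 RPKM for Pdgfrb in WT, and the orange points lie to the right of the blue ones for Kdr, Flt1 and Pdgfrb and to the left for Cdh5, Cldn5, Rgs5 and Abcc9.

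The low levels of the classical endothelial markers were checked against 20 further endothelial identity genes. Of these, 10 were under 1 CPM in every library. Sox17, an endothelial transcription factor, had 0, 1 and 3 counts in WT replicates 1, 2 and 3 and 0, 0 and 1 counts in the Fmr1-KO replicates. Sox17 was thus absent or nearly so in both genotypes. Sox18, a related factor, had 8, 9 and 12 counts in WT and 5, 1 and 4 counts in Fmr1-KO. Abcb1a, the efflux pump of brain endothelium, had 9, 11 and 7 counts in WT and 8, 2 and 11 counts in Fmr1-KO. Among 10 further pericyte genes, 4 were under 1 CPM in every library. Of those, Higd1b had at most 3 counts in any library and Atp13a5 at most 9. These markers, named after their values were seen, had few or no counts, but other genes of the further lists were not low. In WT, Notch3 stood at 45.0 CPM, Cspg4 at 27.5 CPM and Mcam at 17.1 CPM among pericyte genes. Among endothelial genes, Eng stood at 5.47 CPM and Ramp2 at 5.05 CPM. Most of the counts of the 10 genes came from Pdgfrb, Rgs5 and Kdr.

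Kdr encodes the main signalling receptor for VEGF-A on endothelium (ENSMUSG00000062960, minus strand of chromosome 5, 75932827 to 75978458). It had 282, 217 and 238 counts in WT replicates 1, 2 and 3 and 510, 533 and 629 counts in Fmr1-KO replicates 1, 2 and 3. Every Fmr1-KO library was thus well above the highest WT library. The mean rose from 7.27 ± 0.784 CPM to 17.1 ± 1.24 CPM (SD, n = 3), a 2.34-fold increase (log2 fold-change 1.23, SE 0.08, 95% interval 1.05 to 1.40, adjusted P = 1.70e-10). This was the only one of the 10 genes with a mean above 2 times that of WT.

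Flt1, the other VEGF-A receptor, binds the ligand tightly and is best known for holding it back from Kdr (ENSMUSG00000029648, minus strand of chromosome 5, 147561604 to 147726011). It had 64, 56 and 57 counts in WT and 69, 79 and 79 counts in Fmr1-KO. The groups did not overlap, but the lowest Fmr1-KO library lay close to the highest WT library. Its log2 fold-change of 0.41 (SE 0.15, adjusted P = 0.0369) took the mean from 1.75 ± 0.0814 CPM to 2.32 ± 0.234 CPM (SD, n = 3). This call was fragile: it was lost when any library other than Fmr1-KO replicate 1 was left out, with an adjusted P of 0.0581, 0.0853 and 0.0920 on removal of WT replicate 1, 2 or 3, and of 0.135 and 0.0658 on removal of Fmr1-KO replicate 2 or 3. DESeq2 did not call it (adjusted P = 0.169). Counts by gene do not separate the soluble form of the receptor from the membrane form.

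The balance of the VEGF receptors was compared within libraries. For each library the CPM of Kdr was divided by that of Flt1, and the ratio was 4.15 ± 0.266 (SD, n = 3) in WT and 7.37 ± 0.608 in Fmr1-KO. The groups did not overlap, and the 2-sided exact permutation test gave P = 0.1, the smallest value that 3 libraries against 3 allow. Among the ligands, Vegfa was higher in Fmr1-KO (log2 fold-change 0.23, SE 0.06, adjusted P = 0.00350), as was Nrp1, the co-receptor that presents VEGF-A to Kdr (0.29, SE 0.04, adjusted P = 2.43e-06). Nrp2, the other neuropilin co-receptor, was lower (-0.23, SE 0.04, adjusted P = 3.34e-05). Vegfb, which binds Flt1 but not Kdr, was higher by 0.20 (SE 0.06, adjusted P = 0.00901), a call that was lost without WT replicate 1 (0.15, adjusted P = 0.0708) or Fmr1-KO replicate 1 (0.12, adjusted P = 0.104). Pgf, another ligand of Flt1, did not pass the test (0.29, SE 0.14, adjusted P = 0.0979).

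Tek encodes the angiopoietin receptor Tie2 (ENSMUSG00000006386, plus strand of chromosome 4, 94739289 to 94874976). It had 17, 8 and 9 counts in WT and 14, 7 and 8 in Fmr1-KO, too few to enter the test. The groups overlapped, with replicate 1 the highest library in both genotypes. The ratio of summed rates was 0.899 (95% interval 0.528 to 1.52, counting error only), and the 2-sided exact permutation P was 0.5, so at this depth a difference in Tek was not detectable.

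The ligands and the sister receptor of Tek could be set beside it. Tie1, the related orphan receptor, had 7, 7 and 10 counts in WT and 0, 1 and 7 counts in Fmr1-KO and was not tested. Angpt1, which activates Tek, did not pass the test (log2 fold-change 0.06, SE 0.05, adjusted P = 0.269). Angpt2, which competes with it, was lower in Fmr1-KO, with 188, 174 and 213 counts in WT against 134, 136 and 138 in Fmr1-KO (-0.45, SE 0.11, adjusted P = 0.00224). The ratio of Angpt2 to Angpt1 was 0.134 ± 0.0126 (SD, n = 3) in WT and 0.0942 ± 0.00691 in Fmr1-KO, without overlap (2-sided exact permutation P = 0.1, the smallest possible).

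Cdh5 encodes VE-cadherin, the adherens junction protein of endothelium (ENSMUSG00000031871, plus strand of chromosome 8, 104101625 to 104144511). It had 109, 63 and 86 counts in WT and 61, 41 and 56 counts in Fmr1-KO. The WT libraries were widely spread, and WT replicate 2 lay barely above Fmr1-KO replicate 1. The mean fell from 2.54 ± 0.616 CPM to 1.61 ± 0.268 CPM (SD, n = 3; log2 fold-change -0.66, SE 0.19, adjusted P = 0.00677). The call rested on WT replicate 1, without which it was -0.48 with an adjusted P of 0.0705. Kdr and Cdh5 moved apart: Kdr over Cdh5 was 2.93 ± 0.452 in WT and 10.9 ± 2.34 in Fmr1-KO, without overlap (2-sided exact permutation P = 0.1, the smallest possible). Each gene was already separated by genotype, in opposite directions, so that outcome was fixed in advance and adds no support.

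Cldn5 encodes the main claudin of blood-brain barrier tight junctions (ENSMUSG00000041378, plus strand of chromosome 16, 18776847 to 18778262). It had 8, 9 and 5 counts in WT and 4, 1 and 4 counts in Fmr1-KO, and was not tested for want of counts. All Fmr1-KO libraries were below all WT libraries, in single digits. The ratio of summed rates was 0.431 (95% interval 0.175 to 0.974, counting error only), and the 2-sided exact permutation P was 0.1, the smallest possible. When the filter on low counts was dropped, the fitted log2 fold-change came to -1.21 (SE 0.61, adjusted P = 0.163).

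Pecam1 and Esam, adhesion molecules of the immunoglobulin family at endothelial contacts, showed no change past the threshold. Pecam1 (ENSMUSG00000020717, minus strand of chromosome 11, 106654217 to 106750628) had 36, 15 and 30 counts in WT and 32, 28 and 40 in Fmr1-KO. Its groups overlapped, with WT replicate 2 the lowest of all, and the 95% interval of the log2 fold-change ran from -0.19 to 0.89 (estimate 0.35, adjusted P = 0.299). Esam (ENSMUSG00000001946, plus strand of chromosome 9, 37528078 to 37538319) had 45, 35 and 41 counts in WT and 37, 32 and 40 in Fmr1-KO. These groups overlapped too, and the interval ran from -0.51 to 0.30 (estimate -0.10, adjusted P = 0.710). The intervals leave room for a rise or a small fall in Pecam1, and for a fall or a smaller rise in Esam.

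Of the 7 members with a mean under 5 CPM, 5 were tested and 3 of these were called, beside 23.3% of all tested genes at such levels called in either direction. The summed level of the 7 endothelial genes was 12.2 to 16.1 CPM in WT and 22.4 to 24.6 CPM in Fmr1-KO. Kdr made that difference: without it the other 6 summed to 5.63 to 8.03 CPM in WT and 6.14 to 6.67 CPM in Fmr1-KO, and the genotypes overlapped.

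Of the 20 further endothelial identity genes 13 were tested. Of these, 4 were lower, beside 21.9% of all tested genes, and the other 9 did not pass the test. The median log2 fold-change of the 13 was -0.21, beside 0.01 for all genes. The lower count became 3 under DESeq2, upper-quartile scaling or scaling by totals, and 0 under the stricter filter. Without Fmr1-KO replicate 2, 1 gene of this list was called higher. Fli1, an ETS transcription factor of endothelium and blood cells, was lower (-0.66, SE 0.16, adjusted P = 0.00182). Ramp2, a co-receptor for adrenomedullin that shares exon sequence on its strand with Vps25, was also lower (-0.59, SE 0.11, adjusted P = 1.98e-04). Eng, a co-receptor for TGF-beta family ligands, was at -0.27 (SE 0.11, adjusted P = 0.0454), and its call was lost without any one of WT replicates 1, 2 and 3 or Fmr1-KO replicates 2 and 3, with adjusted P from 0.0525 to 0.203. The remaining lower gene, Ptprb, averaged 0.947 CPM, under the level set for naming, and had the largest change of these tested genes (-1.06, SE 0.22, adjusted P = 5.84e-04). Plvap, of fenestrated and immature endothelium, and Cd34 were at 0.33 (adjusted P = 0.0820) and 0.22 (adjusted P = 0.259).

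Of 12 tested blood-brain barrier genes, 1 was lower, 5 were higher and 6 did not pass the test, beside 21.9% lower and 20.7% higher among all tested genes, and the median log2 fold-change was 0.10. The higher ones included Slco1c1, the thyroxine transporter (0.59, SE 0.05, adjusted P = 3.55e-09), Slco1a4, an organic anion transporter (0.44, SE 0.10, adjusted P = 0.00139), and Ocln, a tight junction protein (0.35, SE 0.10, adjusted P = 0.00779). Abcg2, an efflux pump, was lower (-0.22, SE 0.07, adjusted P = 0.0106), and the lower count became 2 without WT replicate 2 or without Fmr1-KO replicate 2. Several of these genes are also used by astrocytes or epithelia.

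Pdgfrb encodes the PDGF receptor that recruits pericytes to vessels and is also made by fibroblasts and smooth muscle (ENSMUSG00000024620, plus strand of chromosome 18, 61045150 to 61085061). It had 1747, 1471 and 1529 counts in WT and 2040, 2052 and 2279 counts in Fmr1-KO. Every Fmr1-KO library exceeded every WT library. The mean rose from 46.9 ± 3.02 CPM to 65.1 ± 2.18 CPM (SD, n = 3), 1.39-fold (log2 fold-change 0.47, SE 0.05, adjusted P = 2.96e-08). Its neighbour Csf1r, which lies 15.5 kb away with no protein-coding gene between and marks microglia, went the other way (-0.51, SE 0.06, adjusted P = 4.55e-07).

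The PDGF ligands did not move together. Pdgfb, the ligand that endothelium offers to pericytes, did not pass the test (0.03, SE 0.09, adjusted P = 0.825). Pdgfd, which also signals through Pdgfrb, was higher (0.57, SE 0.13, adjusted P = 9.12e-04). Pdgfa, the ligand of the alpha receptor, was lower (-0.51, SE 0.05, adjusted P = 1.28e-07), as was the alpha receptor itself, Pdgfra, a marker of oligodendrocyte precursors (-0.45, SE 0.04, adjusted P = 1.45e-08). Pdgfra lies 734.6 kb from Kdr on chromosome 5, and these 2 receptor genes changed in opposite directions.

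Rgs5 encodes a regulator of G protein signalling that is a leading transcript of brain pericytes (ENSMUSG00000026678, plus strand of chromosome 1, 169655501 to 169695813). It had 745, 728 and 765 counts in WT and 369, 356 and 429 counts in Fmr1-KO. The replicates were tight and the genotypes were far apart. The mean fell from 22.1 ± 0.750 CPM to 11.8 ± 0.506 CPM (SD, n = 3), 0.533 times the WT level (log2 fold-change -0.91, SE 0.06, adjusted P = 2.27e-10). Pdgfrb and Rgs5, the leading members by level, thus changed in opposite directions. The ratio of Pdgfrb to Rgs5 was 2.12 ± 0.194 in WT and 5.53 ± 0.226 in Fmr1-KO, without overlap (2-sided exact permutation P = 0.1, the smallest possible). The separation of each gene by genotype fixed that outcome in advance, so the ratio adds no support.

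Abcc9 encodes the sulfonylurea receptor subunit of the pericyte potassium channel (ENSMUSG00000030249, minus strand of chromosome 6, 142587862 to 142702315). It had 95, 79 and 71 counts in WT and 32, 37 and 38 counts in Fmr1-KO. The lowest WT library was well above the highest Fmr1-KO library. The mean fell from 2.42 ± 0.304 CPM to 1.09 ± 0.112 CPM (SD, n = 3; log2 fold-change -1.14, SE 0.17, 95% interval -1.51 to -0.78, adjusted P = 1.69e-05), which was the largest fall among the 8 tested members. A non-coding transcript, 5330439B14Rik, overlaps it on the opposite strand, and counting was by strand.

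Kcnj8, the pore subunit that partners Abcc9, lies 16.2 kb from it on chromosome 6 with no protein-coding gene between. It had 27, 17 and 19 counts in WT and 12, 9 and 15 counts in Fmr1-KO. The groups did not overlap, but the adjusted P of 0.0513 missed the threshold (log2 fold-change -0.75, SE 0.30) and passed it only without WT replicate 2 (-0.87, adjusted P = 0.0424). Abcc9 over Kcnj8 was 3.97 ± 0.599 in WT and 3.10 ± 0.875 in Fmr1-KO, and the groups overlapped (2-sided exact permutation P = 0.3). The paralogous subunits of neurons and other cells, Abcc8 (-0.05, adjusted P = 0.651) and Kcnj11 (0.04, adjusted P = 0.710), did not pass the test.

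**Figure D3:**
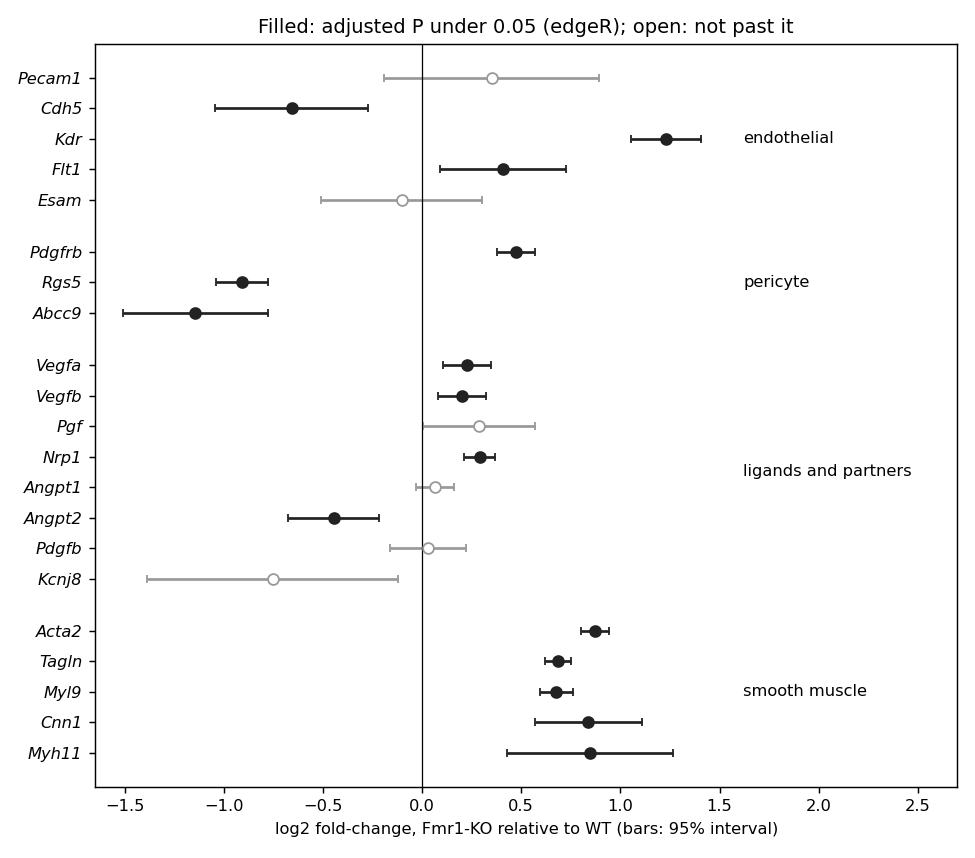
Log2 fold-change in Fmr1-KO relative to WT with its 95% interval for the 8 tested members, for ligands and partner proteins and for smooth muscle genes; filled points passed an adjusted P of 0.05 by edgeR and open points did not. Kdr at 1.23 and Abcc9 at -1.14 mark the ends among the members, and the 5 smooth muscle genes lie between 0.68 and 0.87.

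Further pericyte genes were divided, as the members were. Of 8 tested, 3 were lower and 2 higher, beside 21.9% lower and 20.7% higher among all tested genes. The median log2 fold-change was -0.23. DESeq2 called 2 of them lower and 1 higher. Vtn, a pericyte-secreted matrix protein, was lower (-0.89, SE 0.12, adjusted P = 2.47e-06), and so was Cspg4, the NG2 proteoglycan shared with oligodendrocyte precursors (-0.64, SE 0.06, adjusted P = 5.69e-08). Anpep, an aminopeptidase, was at -0.27 (adjusted P = 0.0277), a call lost without WT replicate 1 (adjusted P = 0.110), WT replicate 3 (0.0599), Fmr1-KO replicate 1 (0.118) or Fmr1-KO replicate 2 (0.0611). Des, a muscle-type intermediate filament, was higher (0.58, SE 0.17, adjusted P = 0.0108), though not under DESeq2 (adjusted P = 0.0816). Mcam, an adhesion molecule of mural and endothelial cells, was higher by 0.20 (adjusted P = 0.0117), a call lost without Fmr1-KO replicate 3 (adjusted P = 0.0778).

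The contractile genes of vascular smooth muscle were all higher, 5 of 5, beside 20.7% of all tested genes. Their median log2 fold-change was 0.84. Acta2, smooth muscle actin, went from 176.1 ± 8.33 CPM to 322.0 ± 6.52 CPM (SD, n = 3; 0.87, SE 0.03, adjusted P = 3.51e-14). Cnn1, calponin (0.84, SE 0.13, adjusted P = 1.79e-05), and Myh11, the smooth muscle myosin heavy chain (0.85, SE 0.20, adjusted P = 0.00169), were also higher, as were Tagln and Myl9. Cnn1 and Myh11, the most restricted of these genes, stood at 2.14 and 1.14 CPM in WT. Within the mural genes, Pdgfrb thus shared its direction with the contractile genes, and Rgs5 and Abcc9 did not.

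Vascular ligands beyond those of the members went both ways. Of 20 tested, 5 were lower and 7 higher, beside 21.9% lower and 20.7% higher among all tested genes. The median was 0.06, and the lower count became 3 without WT replicate 1. Cxcl12, a chemokine made by vessels and meninges (-0.70, SE 0.07, adjusted P = 5.75e-08), was lower, while Apln, the apelin peptide of sprouting endothelium (0.67, SE 0.12, adjusted P = 8.91e-05), and Ndp, the norrin ligand of the barrier pathway (0.37, SE 0.07, adjusted P = 1.76e-04), were higher.

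The receptors that act with the members went both ways as well, with 5 lower and 4 higher of 16 tested. Among all tested genes the shares were 21.9% lower and 20.7% higher, and the median of the receptors was 0.03. Acvrl1, the endothelial receptor for bone morphogenetic protein ligands, was lower (-1.05, SE 0.21, adjusted P = 3.77e-04), as was Plxnd1, a semaphorin receptor of vessels and neurons (-0.97, SE 0.04, adjusted P = 2.81e-13). Ephb4, a receptor of venous endothelium (0.33, SE 0.07, adjusted P = 3.03e-04), and S1pr1, a lipid receptor of endothelium and astrocytes (0.20, SE 0.03, adjusted P = 3.48e-05), were higher.

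**Figure D4:**
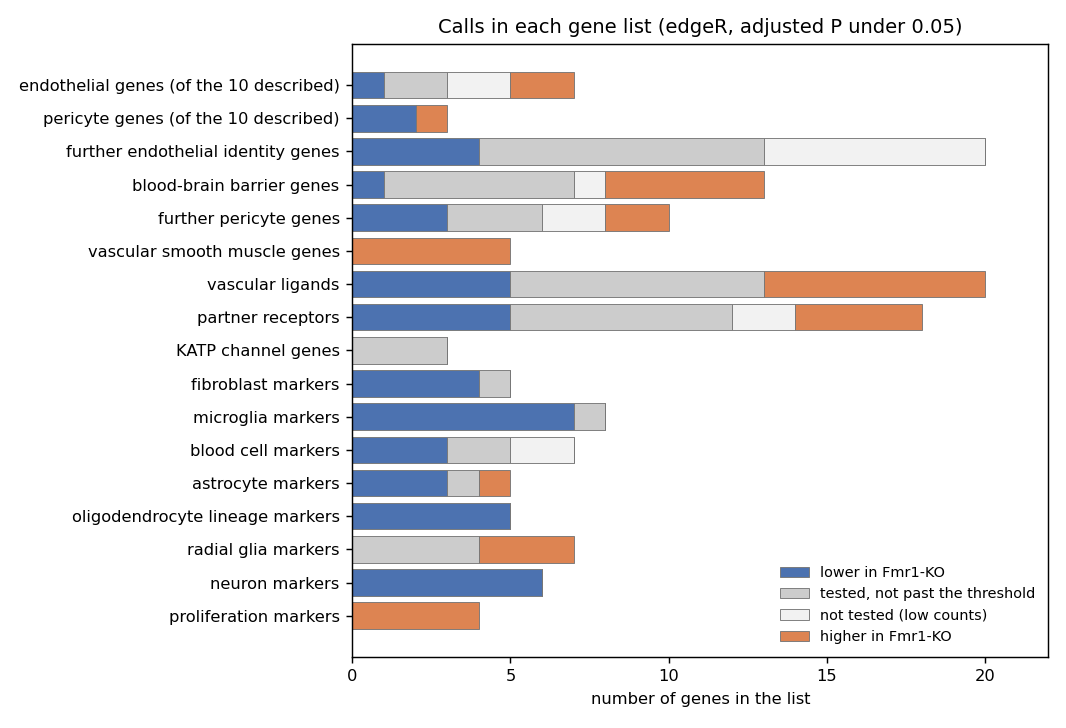
Horizontal bars give, for each gene list, the number of genes lower in Fmr1-KO (blue), tested but not past the threshold (grey), not tested (pale) and higher (orange) by edgeR at an adjusted P under 0.05. The 5 smooth muscle and 4 proliferation genes were all higher, and the 6 neuron and 5 oligodendrocyte lineage genes were all lower. Among all tested genes, 20.7% were higher and 21.9% lower.

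Markers of other cell types also differed between the genotypes, and their part in the results for the 10 genes was not tested. The counts below stand beside shares of 21.9% lower and 20.7% higher among all tested genes. All 6 neuron markers were lower, with a summed level of 3204 to 3269 CPM in WT and 2515 to 2660 CPM in Fmr1-KO, and all 4 proliferation markers were higher (293 to 333 CPM against 548 to 620 CPM). Microglia markers were lower in 7 of 8 (173 to 191 CPM against 100 to 113 CPM), oligodendrocyte lineage markers in 5 of 5 (610 to 629 CPM against 378 to 420 CPM) and astrocyte markers in 3 of 5, with 1 higher (3621 to 3754 CPM against 3013 to 3382 CPM). Of 7 radial glia markers, 3 were higher (3162 to 3196 CPM against 3448 to 3501 CPM). Blood cell markers were lower in 3 of 5 tested (18.1 to 20.0 CPM against 15.5 to 20.6 CPM), or in 1 without WT replicate 3. Fibroblast markers were lower in 4 of 5 (400.2 to 446.6 CPM against 358.6 to 398.7 CPM), or in 0 against a minimum fold change of 1.2. The summed level of the 3 pericyte genes was 68.9 to 74.4 CPM in WT and 75.1 to 79.9 CPM in Fmr1-KO, and this sum is mainly Pdgfrb.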

How the data were processed

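RNA was measured in 6 libraries, 3 WT and 3 Fmr1-KO, grouped by the genotype and replicate number in their labels. The values that the authors deposited are raw read counts for each gene, not normalized. By the study's methods, stranded mRNA libraries were sequenced as single-end 100-nt reads, trimmed with FastP, aligned to GRCm38.p6 with STAR and counted over exons by gene name with featureCounts in reverse-stranded mode, and tested with DESeq2. The submitters' processing notes name STAR 2.7.6a, Subread 2.0.1 and DESeq2 1.22.1. Counts by gene name do not separate isoforms.

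Here, counts were tested with edgeR 4.0.16 (R 4.3.3): filterByExpr with a minimum count of 10, TMM scaling, glmQLFit and glmQLFTest, 2-sided, genotype as the only term, with Benjamini-Hochberg adjustment over all 16976 tested genes. Genes with an adjusted P under 0.05 were called. SE is the absolute log2 fold-change over the square root of F. CPM use TMM-scaled library sizes, and RPKM divide them by exon length. Gene positions and lengths came from GENCODE M21 (GRCm38), not the authors' release. Ratios and untested genes were compared by a 2-sided exact permutation test over libraries. Intervals for untested genes cover counting error only.

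The 10 genes and the other gene lists were chosen with earlier results of these data known. Named from the vascular lists were those called with 1 CPM or more on average, up to 3 per direction per list, and the direct partners of the 10 genes (Vegfa, Vegfb, Pgf, Angpt1, Angpt2, Tie1, Pdgfb, Kcnj8). Sox17, Sox18, Abcb1a, Higd1b, Atp13a5, Notch3, Ptprb, Plvap, Cd34, Abcc8, Kcnj11, Csf1r, Nrp2, Tagln and Myl9 were named after their values were seen. The alternatives were DESeq2 1.42.0, RLE and upper-quartile scaling, scaling by totals, dropping the filter, keeping only genes with means of 10 counts and 5 CPM, a block for replicate number, a minimum fold change of 1.2 and leaving out each library.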

Additional observations from a re-analysis of the deposited data

How the results depend on the processing

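Kdr, Pdgfrb, Rgs5 and Abcc9 kept their direction and their call under every alternative that tested them, with log2 fold-changes of 1.16 to 1.32, 0.44 to 0.53, -0.95 to -0.88 and -1.23 to -1.04, and Fmr1 ranged from -1.03 to -0.94. Over the 8 tested members, 97 of 107 values under an alternative kept direction and side of the threshold, 10 lost the call and 0 reversed. Those 10 all belong to Flt1 and Cdh5. Besides the losses given above, Flt1 lost its call without the filter (adjusted P = 0.0507) and against a minimum fold change of 1.2 (0.332), as Cdh5 did against that minimum (0.0540). DESeq2 called 3 of the 10 genes lower and 2 higher. The stricter filter left 1 lower, since it removes genes under 5 CPM. Against a minimum fold change of 1.2, the count of all tested genes lower was 1340 and of all tested genes higher was 883.

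Of 532 values for the other named genes, 494 kept direction and call, 34 lost the call, 2 gained it and 2 reversed. Notch3, Ptprb, Tagln and Myl9 were not among these genes. The reversals were of genes near 0: Pdgfb ranged from -0.00545 to 0.0791 and Kcnj11 from -0.0187 to 0.0883 with 1 library left out. The minimum fold change left 1 higher barrier gene, 0 higher further pericyte genes, 2 lower and 2 higher ligands, and 0 higher partner receptors. It also left 0 lower barrier genes, 3 lower partner receptors and 0 lower fibroblast markers. That setting asks whether a change exceeds 1.2-fold, and some called genes had smaller estimates, such as Mcam and S1pr1, each at 1.15-fold.

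The replicate numbers did not pair the samples: deviations from the group means correlated at -0.03, 0.03 and -0.01. With the replicate block 3 of the 10 genes were lower and 3 higher, as without it, and Eng lost its call (adjusted P = 0.0601). Depth limits Cldn5 and Tek, which had too few counts for the test.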
